A study of Mus musculus with 12 samples.

Results

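MHC class II presentation was followed in mouse skin through 9 genes, taken by their symbols from the 55453 genes counted in 12 mice. They are the class II chains H2-Aa, H2-Ab1 and H2-Eb1, the invariant chain Cd74, the peptide-loading genes H2-DMa and H2-DMb1, the class II transactivator Ciita, and the costimulatory ligands Cd86 and Cd80. All 9 had enough counts to be tested. The mice were C57BL/6 mice in 4 groups of 3, and the methods describe the KO mice as female. WT animals received the PBS vehicle (called WT PBS here) or bleomycin (WT BLM), and so did Thy-1–KO animals (KO PBS, KO BLM). Bleomycin, an antitumor antibiotic that causes local scarring, was injected under the back skin at 10 mg/kg per day, and skin was harvested on day 21. The methods describe injections for up to 14 days and the labels 21 days of treatment. The KO mice lacked Thy-1 throughout the body and were 8 to 12 weeks old. For WT mice the methods name both purchased C57BL/6J animals and littermates, the labels do not say which were sequenced, and their age is not given in the sources used here.

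MHC class II molecules are pairs of an α and a β chain on the cell surface that show peptides from engulfed proteins to CD4+ T cells. The chains are assembled on the invariant chain, pass through endosomes where proteases cut that chain down, and receive their peptide from the H2-DM pair, while Ciita is the factor that switches the whole set on in dendritic cells, macrophages, Langerhans cells and B cells, and in other cells exposed to interferon-γ. Cd80 and Cd86 bind Cd28 and Ctla4 on the T cell and give or withhold the second signal that activation needs.

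The genes that Ciita serves carry a promoter module of an X box and, closer to the start, a Y box. The RefSeq promoter windows of GRCm38.p6 run from 250 bases before to 50 bases after a start, and 5 of the 9 genes have one: H2-Aa, H2-Eb1, H2-DMa, H2-DMb1 and Cd80. The X letters CTNGNAAC and the Y letters ATTGG were searched on both strands. These letters were chosen after the promoters had been read. An X followed within 20 to 40 bases by a Y on one strand occurred in 90 of 32851 windows (0.274%), whereas X letters alone occurred in 13.2% and Y letters alone in 37.4%. The module is shown for an α chain and a β chain because both genes lie in the class II locus and their levels followed each other closely over the 12 mice, with the X and Y letters in capitals. The H2-Aa stretch lies at chr17:34287837-34287937 on the minus strand, and the H2-Eb1 stretch at chr17:34305743-34305842 on the plus strand.
H2-Aa: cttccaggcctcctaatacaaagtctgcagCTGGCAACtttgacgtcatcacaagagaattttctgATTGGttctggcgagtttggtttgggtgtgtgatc
H2-Eb1: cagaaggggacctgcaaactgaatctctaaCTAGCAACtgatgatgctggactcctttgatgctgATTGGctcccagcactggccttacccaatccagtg

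In H2-Aa the X began 84 and the Y 48 bases before the start, and in H2-Eb1 they began 94 and 59 bases before it. H2-DMb1 held the same arrangement (X letters CTAGTAAC at 97 and Y at 61 bases), as did H2-Ob, which encodes a chain of the DM inhibitor (90 and 57 bases). The pair was not found in the windows of H2-DMa or Cd80, or of H2-Oa, H2-DMb2 and H2-Eb2 in the same locus. The 5 H2 genes lie within 197.1 kb of chromosome 17 (34119541 to 34316674, GRCm38), Ciita, Cd86 and Cd80 on chromosome 16 (from 10480059, 36603869 and 38455561) and Cd74 on chromosome 18 (from 60803848). At a length of 75 bases, 15.84% of H2-DMb1 transcript sequence also occurs in its paralog H2-DMb2, and 7.46% of that of H2-DMa in Brd2, which it overlaps on the opposite strand, so these 2 counts are less certain. The share was 0.76% for Ciita, with Dexi, and 0 for the other 6 genes. C57BL/6 mice carry the H2-Ea gene only as a broken copy, and H2-Ea-ps had at most 1 count in any mouse.

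Each library held between 26473700 and 38890450 counts (median 31494965). No library repeated another. The knockout could not be checked from gene totals: Thy1 was counted in all 6 KO mice, at 45.6 to 96.9 CPM in KO PBS and 84.7 to 128 CPM in KO BLM, against 104 to 150 CPM in WT PBS and 231 to 416 CPM in WT BLM. The counts do not show which exons were read. KO PBS replicate 136 stood apart from its group. In 19 genes of the growing hair shaft and its sheath, whose mean log2 CPM was 9.77 to 10.43 in WT PBS, this mouse had 10.33 and the other KO PBS mice -0.72 and 1.99. WT BLM mice had -0.36 to 3.82, and KO BLM mice 9.32 (replicate 141), 5.48 and 6.51. Results are therefore also given without KO PBS replicate 136.

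Levels of different genes were compared as CPM per kilobase of exon. Cd74 was the most abundant of the 9 in each mouse, at 317 ± 19.1 CPM per kilobase (SD, n = 3) in WT PBS, followed by H2-Eb1 (103 ± 4.65), H2-Ab1 (89.3 ± 2.65) and H2-Aa (64.6 ± 4.69). H2-DMb1 (12.9 ± 0.853) and H2-DMa (7.23 ± 0.848) came next in all 12 mice. Ciita and Cd86 could not be ordered: Ciita was the higher in 6 mice and Cd86 in the other 6, and their WT PBS means were 1.234 ± 0.140 and 1.224 ± 0.454 CPM per kilobase. Cd80 was lowest in all 12 mice, at 0.322 ± 0.0411 CPM per kilobase in WT PBS. The same order from Cd74 down to H2-DMa held in each of the 4 groups.

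**Figure D1:**
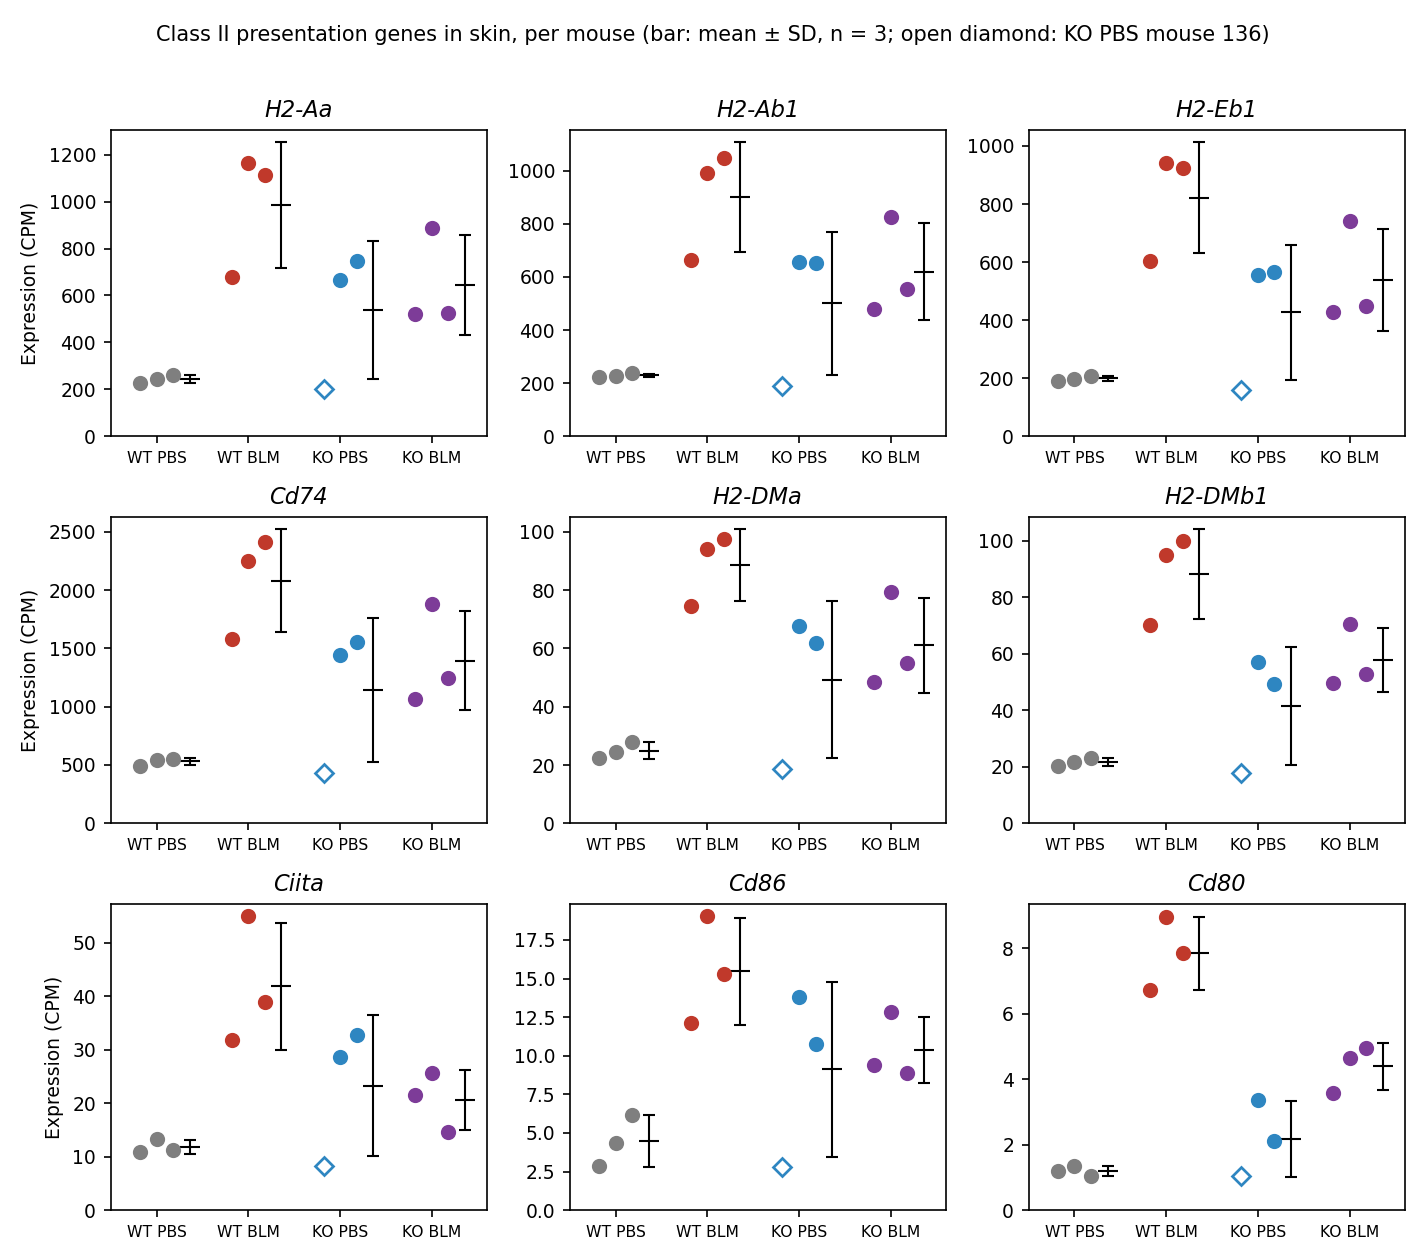
Expression of the 9 class II presentation genes as CPM (y axis, linear, from 0) in each mouse of the 4 groups (x axis), with the mean and SD of 3 mice beside the points. All WT BLM points lie above all WT PBS points, and the open diamond, KO PBS replicate 136, lies below all WT PBS points in every panel while the other 2 KO PBS mice lie above them.

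Bleomycin-treated WT skin held more transcript of all 9 genes than PBS-treated WT skin. H2-Ab1, the β chain of the I-A molecule, had 224, 227 and 237 CPM in the WT PBS mice and 663, 991 and 1047 CPM in the WT BLM mice. Every treated mouse was above every control, and replicate 145 was the lowest WT BLM mouse for this gene as for the other 8. H2-Ab1 was higher by a log2 fold change of 1.97 (SE 0.42, 95% interval 1.01 to 2.94, adjusted p = 0.00976). In bulk skin, more cells of a type and more RNA per cell cannot be told apart.

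Its partner H2-Aa, the I-A α chain, had 228, 245 and 263 CPM in WT PBS and 679, 1165 and 1114 CPM in WT BLM mice. The 2 groups did not overlap, and the log2 fold change was 2.01 (SE 0.44, adjusted p = 0.0107). H2-Eb1, the I-E β chain, which has no functional α partner in this strain, had 191, 198 and 209 CPM in WT PBS and 603, 941 and 924 CPM in WT BLM mice. It rose with the other chains, by 2.04 on the log2 scale (SE 0.43, adjusted p = 0.00958). Cd74, which holds the peptide groove closed until the endosome, had 495, 545 and 555 CPM in WT PBS and 1577, 2252 and 2415 CPM in WT BLM mice. Again the groups were apart, with a log2 fold change of 1.97 (SE 0.43, adjusted p = 0.0104). Together the 3 chains and Cd74 took 0.122% ± 0.00477 (SD, n = 3) of all counts in WT PBS and 0.470% ± 0.113 (SD, n = 3) in WT BLM.

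The loading genes followed. H2-DMa had 22.2, 24.5 and 28.0 CPM in WT PBS and 74.5, 94.1 and 97.5 CPM in WT BLM mice, and H2-DMb1 had 20.2, 21.6 and 23.1 CPM and 70.2, 95 and 99.8 CPM. Neither gene overlapped between the groups, and the log2 fold changes were 1.83 (SE 0.40, adjusted p = 0.0104) and 2.03 (SE 0.36, adjusted p = 0.00561). Ciita had 10.8, 13.3 and 11.2 CPM in WT PBS and 31.8, 54.9 and 38.9 CPM in WT BLM mice. The transactivator was thus higher in every treated mouse, by 1.83 on the log2 scale (SE 0.44, adjusted p = 0.0142).

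Of the costimulatory ligands, Cd86, which resting presenting cells already carry, had 2.87, 4.38 and 6.19 CPM in WT PBS and 12.1, 19 and 15.3 CPM in WT BLM mice. Its log2 fold change, 1.79 (SE 0.49, adjusted p = 0.023), was the smallest of the 9. Cd80, which is induced on activated presenting cells, had 1.18, 1.35 and 1.04 CPM in WT PBS and 6.73, 8.97 and 7.84 CPM in WT BLM mice, from 35 to 41 and from 172 to 275 counts. Cd80 had the largest log2 fold change, 2.72 (SE 0.37, 95% interval 1.85 to 3.58, adjusted p = 0.00355). Within a mouse there were 29.6 ± 12.2 (SD, n = 3) Cd80 counts for every 100 Cd86 counts in WT PBS and 51.3 ± 4.29 in WT BLM, ranges of 16.9 to 41.2 and 47.1 to 55.7 that did not overlap. These ratios were not tested.

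All 9 genes were therefore called higher by edgeR's quasi-likelihood test (Benjamini-Hochberg adjusted p from 0.00355 to 0.023), where 19.8% of the 18311 genes tested were called higher, and all 9 were without overlap, where 28.3% of genes were. Their median log2 fold change was 1.97, against 0.018 over all genes tested. Leaving out 1 mouse at a time lost 2 calls: Cd86 without WT PBS replicate 159 or 160 or WT BLM replicate 146 or 147, and Ciita without WT PBS replicate 159 (adjusted p up to 0.0825). With the mean of the growing hair genes as a covariate none of the 9 was called (0 by edgeR, 2 at an unadjusted p under 0.05, adjusted p from 0.127 to 0.838) and the median log2 fold change was 0.83, where 13 genes in all (0.071%) passed the threshold. Hair growth and bleomycin split the WT mice the same way, so the 2 cannot be told apart in them.

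**Figure D2:**
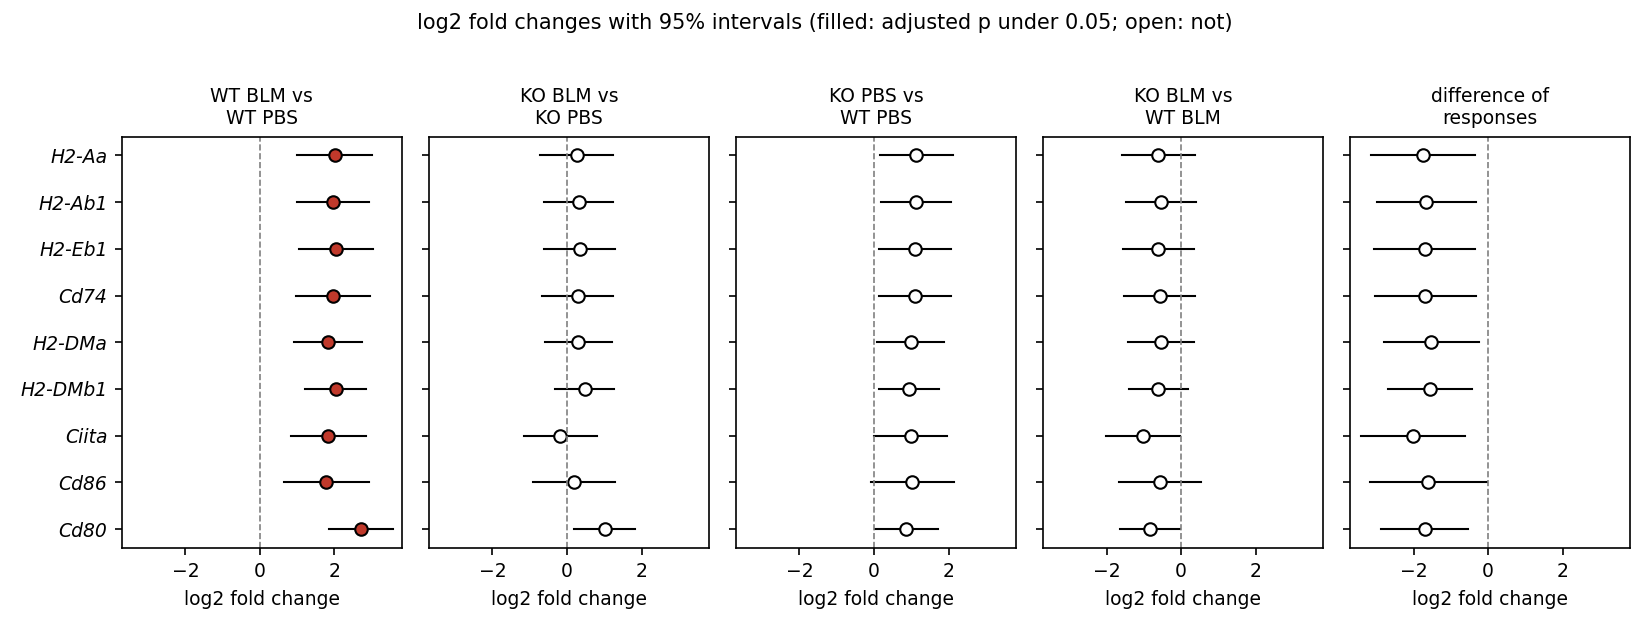
The log2 fold change of each of the 9 genes (x axis) with its 95% interval in the 4 comparisons and in the KO response minus the WT response, from edgeR's model of all 12 mice. Filled points pass the adjusted p threshold of 0.05. All 9 points are filled for WT BLM against WT PBS, from 1.79 to 2.72, and none in the other 4 panels.

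In Thy-1–KO mice bleomycin-treated and PBS-treated skin overlapped for 8 of the 9 genes. H2-Ab1 had 191, 656 and 652 CPM in KO PBS and 479, 827 and 553 CPM in KO BLM mice (replicates 136, 137 and 139, and 141, 143 and 144). The first KO PBS mouse was below all treated mice and the other 2 were above 2 of them, and the log2 fold change was 0.31 (SE 0.40, 95% interval -0.62 to 1.24, adjusted p = 0.686). H2-Aa had 203, 668 and 748 CPM in KO PBS and 522, 889 and 525 CPM in KO BLM mice. Cd74 had 434, 1441 and 1557 CPM and 1067, 1878 and 1244 CPM. Both genes showed the same split of the KO PBS group, with log2 fold changes of 0.26 (95% interval -0.72 to 1.23) and 0.29 (95% interval -0.67 to 1.24).

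H2-Eb1 ran from 158 to 567 CPM in KO PBS and from 428 to 743 CPM in KO BLM, H2-DMa from 18.5 to 67.6 and from 48.5 to 79.5 CPM, and H2-DMb1 from 17.8 to 57.1 and from 49.7 to 70.7 CPM. The log2 fold changes of these 3 genes were 0.34, 0.31 and 0.48. Ciita had 8.28, 28.7 and 32.8 CPM in KO PBS and 21.6, 25.6 and 14.5 CPM in KO BLM mice. It was the only 1 of the 9 with a value below 0, a log2 fold change of -0.18 (SE 0.42, 95% interval -1.15 to 0.80). Cd86 gave 0.18 (SE 0.48), with 2.83 to 13.8 CPM in KO PBS and 8.91 to 12.8 CPM in KO BLM.

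Cd80 was the gene without overlap. It had 1.03, 3.37 and 2.12 CPM in KO PBS and 3.58, 4.65 and 4.95 CPM in KO BLM mice, so that every treated mouse was above every control. The log2 fold change was 1.01 (SE 0.35, 95% interval 0.19 to 1.83), with an unadjusted p of 0.0163 and an adjusted p of 0.171 in the quasi-likelihood model. Among all genes 10.8% were without overlap in this direction. There were 26.9 ± 8.68 (SD, n = 3) Cd80 counts per 100 Cd86 counts in KO PBS and 43.3 ± 10.7 in KO BLM, ranges of 19.6 to 36.5 and 36.2 to 55.6 that just overlapped.

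None of the 9 was called in this comparison (0 by edgeR and 0 by DESeq2, 1 at an unadjusted p under 0.05 by each), where 0.306% of all genes tested were called. The median log2 fold change was 0.31. Without KO PBS replicate 136 it was -0.09 and again 0 were called, where 14% of all genes were. With the hair covariate 2 were called, H2-DMb1 and Cd80, where 8.91% of all genes were, and the median was 0.92.

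Skin given only PBS was compared between the genotypes next. KO PBS replicate 136 had less transcript of all 9 genes than any WT PBS mouse, and replicates 137 and 139 had more of all 9 than any WT PBS mouse. With all 3 KO PBS mice the log2 fold changes ran from 0.87 (Cd80) to 1.14 (H2-Aa), with a median of 1.03. None was called (0 by edgeR, with 8 at an unadjusted p under 0.05, and 0 by DESeq2, with 9; adjusted p from 0.211 to 0.256 in edgeR), where 0.0655% of all genes were. No gene of the 9 was without overlap, where 8.62% of all genes were without overlap and higher in KO PBS.

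Without KO PBS replicate 136, all 9 genes were called higher in the 2 remaining KO PBS mice (adjusted p from 0.00139 to 0.00697), where 17.8% of all genes were called higher. H2-Aa then gave a log2 fold change of 1.53, H2-Ab1 1.51, Cd74 and H2-Eb1 1.49, Cd86 1.45, Ciita and H2-DMa 1.38, H2-DMb1 1.3 and Cd80 1.20. All 9 were also without overlap, where 35.4% of all genes then were. With all 12 mice and the hair covariate the values shrank to between -0.12 and 0.16. What sets replicate 136 apart from replicates 137 and 139 was not tested, and the labels give the 3 mice the same genotype and treatment.

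**Figure D3:**
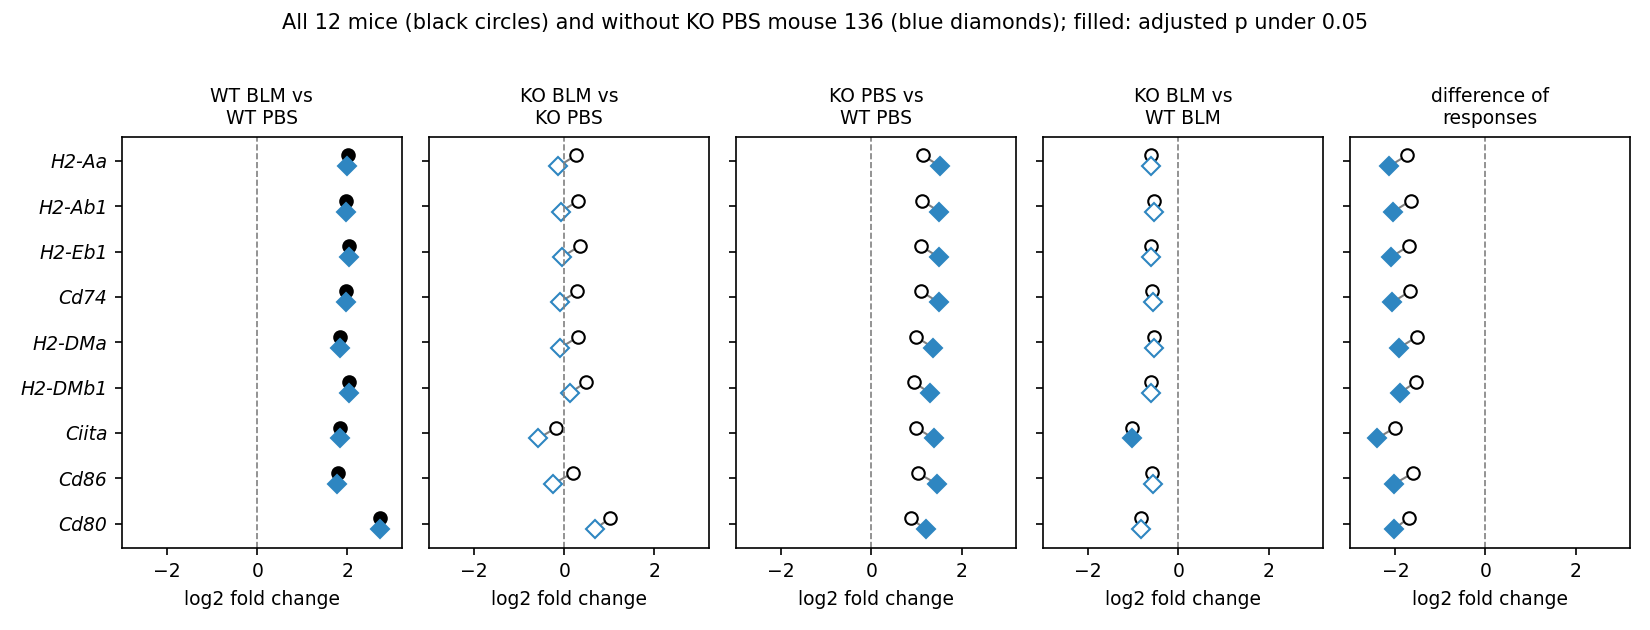
The log2 fold change of each of the 9 genes (x axis) with all 12 mice (black circles) and without KO PBS replicate 136 (blue diamonds), filled where the adjusted p from edgeR is under 0.05. Leaving this mouse out moved KO PBS against WT PBS from 0 to 9 calls and the difference between responses from 0 to 9 calls, and left WT BLM against WT PBS at 9.

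Under bleomycin all 9 genes had lower means in KO than in WT skin, and none passed the threshold (0 by edgeR and by DESeq2, 2 at an unadjusted p under 0.05 by each). The share of all genes called was 0.0928%. The log2 fold changes ran from -0.54 (H2-DMa) to -1.02 (Ciita), with a median of -0.61 and adjusted p from 0.283 to 0.53. With the hair covariate 7 of the 9 turned to higher in KO (median 0.16), Ciita and Cd80 stayed lower, and 0 were called. Cd74 averaged 2081 ± 444 CPM (SD, n = 3) in the WT and 1396 ± 427 CPM in the KO group, and H2-Ab1 900.1 ± 207 and 620 ± 183 CPM. KO BLM replicate 143 lay above the lowest WT BLM mouse for 7 of the 9 genes and the other 2 KO BLM mice for none.

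Ciita and Cd80 were the 2 genes without overlap. Ciita had 31.8, 54.9 and 38.9 CPM in WT BLM and 21.6, 25.6 and 14.5 CPM in KO BLM mice, and its log2 fold change was -1.02 (SE 0.43, adjusted p = 0.284). Cd80 gave -0.84 (SE 0.35, adjusted p = 0.283). Of all genes, 12.9% were without overlap and lower in KO BLM. Without KO PBS replicate 136, a mouse of neither group that still enters the estimate of spread, Ciita was called (adjusted p = 0.0374), where 3.11% of genes were called lower, and the other 8 were not. Within a mouse there were 4.81 ± 0.586 (SD, n = 3) Ciita counts per 100 H2-Aa counts in WT PBS and 4.30 ± 0.695 in WT BLM mice, 4.25 ± 0.158 after PBS and 3.27 ± 0.762 after bleomycin in KO mice, and the 2 BLM groups overlapped in this ratio.

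The 4 means of a gene can be set in order. For 8 of the 9 genes the order from the lowest was WT PBS, KO PBS, KO BLM and WT BLM, and for Ciita the 2 KO groups changed places. The order of the 2 KO groups depended on replicate 136. Without it the log2 fold change of KO BLM against KO PBS was below 0 for H2-Aa, H2-Ab1, H2-Eb1, Cd74, H2-DMa, Cd86 and Ciita. It stayed above 0 for H2-DMb1 and Cd80, and the median of the 9 was -0.09. Of the 4 comparisons between groups, WT BLM against WT PBS alone passed the threshold for any of the 9. WT PBS and KO PBS overlapped for all 9 through replicate 136. KO PBS and KO BLM, neighbours in that order, overlapped for all genes but Cd80, and KO BLM and WT BLM overlapped for all but Ciita and Cd80.

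Whether KO and WT mice responded to bleomycin by different amounts was tested as well. Each of the 9 genes responded less in KO than in WT mice, by -1.52 (H2-DMa) to -2.01 (Ciita) on the log2 scale. None passed the threshold in edgeR (0 called, as for 0% of all genes, adjusted p from 0.080 to 0.143), and all 9 had an unadjusted p under 0.05, as did 5687 of the 18311 genes. H2-Aa gave -1.75 (SE 0.60, 95% interval -3.14 to -0.36) and Cd80 -1.71 (SE 0.50, 95% interval -2.87 to -0.55). DESeq2 called 8 of the 9, all but Cd86, at adjusted p from 0.013, where it called 10.2% of genes lower. Without KO PBS replicate 136 edgeR called all 9 (adjusted p from 0.000662 to 0.00478, log2 differences from -1.91 to -2.40), where 19.5% of genes were called lower. With the hair covariate the median went from -1.68 to 0.11, 6 of the 9 genes were above 0, and 0 were called by edgeR (0 at an unadjusted p under 0.05), as for 0% of all genes.

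The 9 genes rose and fell together from mouse to mouse. The mean log2 CPM of the 3 chains over the 12 mice was followed by Cd74 with a Pearson r of 0.999, by H2-DMa with 0.993, H2-DMb1 with 0.989, Cd86 with 0.958, Ciita with 0.940 and Cd80 with 0.918. Over the 36 pairs of genes r ran from 0.839 to 0.999. In deviations from the group means, which leave out the differences between groups, it ran from 0.761 to 0.997. The points share the library and the cells in it, and KO PBS replicate 136 weighs heavily in the deviations. Ratios among the chains and Cd74 varied little between mice. There were 2.37 ± 0.0671 (SD, n = 3) Cd74 counts per mean chain count in WT PBS and 2.32 ± 0.128 in WT BLM mice. In KO mice there were 2.34 ± 0.0379 after PBS and 2.32 ± 0.106 after bleomycin. For every H2-Ab1 count there were 1.07, 1.09, 1.08 and 1.04 H2-Aa counts on average in the same 4 groups. Other ratios varied more. Cd80 counts per 100 Cd86 counts ranged from 16.9 to 55.7 over the 12 mice, and Ciita counts per 100 H2-Aa counts from 2.77 to 5.42.

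Among 13829 other genes whose mean log2 CPM was 1 or more, the 8 most like the chains were Cytip (r = 0.989), Ptpn22 (0.987), Olfm1 (0.984), H2-M3 (0.983), Gng2, Il27ra, Pip4k2a and Sp140 (0.982 each, to 3 digits). Ptpn22 encodes a phosphatase of lymphocyte signalling, Il27ra a cytokine receptor chain and H2-M3 a nonclassical class I molecule. The median r over all these genes was -0.074, and 801 of them had an r of at least 0.9, so Cd86, Ciita and Cd80 were no closer to the chains than many other genes were.

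The remaining genes of the pathway were not all called in WT BLM against WT PBS as the 9 were. Of all genes tested, 19.8% were called higher there. In the class II locus, 2 of 4 tested genes were called higher and 0 lower. All 4 were higher in every WT BLM mouse than in any WT PBS mouse, as were 28.3% of all genes. H2-DMb2, a second DM β chain, rose by 1.62 on the log2 scale (SE 0.52, adjusted p = 0.0381). H2-Eb2 was the other (adjusted p = 0.00405), with 1 to 3 counts in WT PBS mice and 17 to 34 in WT BLM mice. H2-Oa and H2-Ob, the chains of the DM inhibitor, gave 1.14 and 1.10 and were not called (adjusted p = 0.139 and 0.110).

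Of 18 tested regulators of class II transcription, 7 were called higher and 3 lower. Spi1, which encodes the myeloid factor PU.1 (log2 fold change 2.26), Irf8 (2.01) and the receptor chain Ifngr1 (1.27) rose. The fixed components that sit on the X and Y boxes did not rise: Rfx5 gave -0.06 (adjusted p = 0.816), and Rfxank (-0.46), Nfya (-0.37) and Creb1 (-0.46) were the 3 called lower. Of all genes, 19.8% were called higher and 14.1% lower. Ifng itself had too few counts to be tested.

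Of 10 endosomal processing genes, 6 were called higher and 1 lower, where 19.8% and 14.1% of all genes were. Ctss, the protease that makes the last cut in the invariant chain in presenting cells, went from 52.8 to 564 CPM on average, a log2 fold change of 3.42 (SE 0.52, adjusted p = 0.00431). Lgmn (1.85) and Ctsk (1.84) rose too. Ctse was the gene that fell, by 6.42 on the log2 scale, from a mean of 151 to 1.75 CPM. March1, the ligase that removes class II from the surface of presenting cells, rose by 1.78 (adjusted p = 0.0284), and March8 gave 0.03 (adjusted p = 0.834).

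Other costimulatory ligands were called higher in 7 of 10 and lower in 1, where 19.8% and 14.1% of all genes were. Cd40 (log2 fold change 2.46), Cd48 (2.09) and Cd276 (1.77) rose, and Vtcn1, an inhibitory ligand, fell by 3.8. Of the 7 T cell receptors for class II and these ligands 6 were called higher, among them Cd4, the coreceptor for class II (2.88), Icos (2.36) and Lag3, another class II receptor (1.06). Cd28, the receptor of Cd80 and Cd86, gave 1.38 and was not called (adjusted p = 0.0608). Of 15 interferon-γ response genes 13 were called higher, led by Irgm1 (2.48), Cxcl10 (2.45), Gbp3 (2.38) and Igtp (2.17), and their median was 1.72.

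In the KO mice 0 genes of these 7 lists were called by edgeR at an adjusted p under 0.05, where 0.306% of all genes tested were. The median log2 fold changes there were 0.18 for the locus, 0.08 for transcription, 0.60 for endosomal processing, -0.28 for turnover, 0.41 for costimulation, 0.65 for T cell receptors and 0.39 for the interferon-γ response. Between 1 and 5 genes of a list had an unadjusted p under 0.05: 1, 4, 5, 1, 3, 3 and 2, in the same order. Of all 18311 genes tested, 3665 had such a p.

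**Figure D4:**
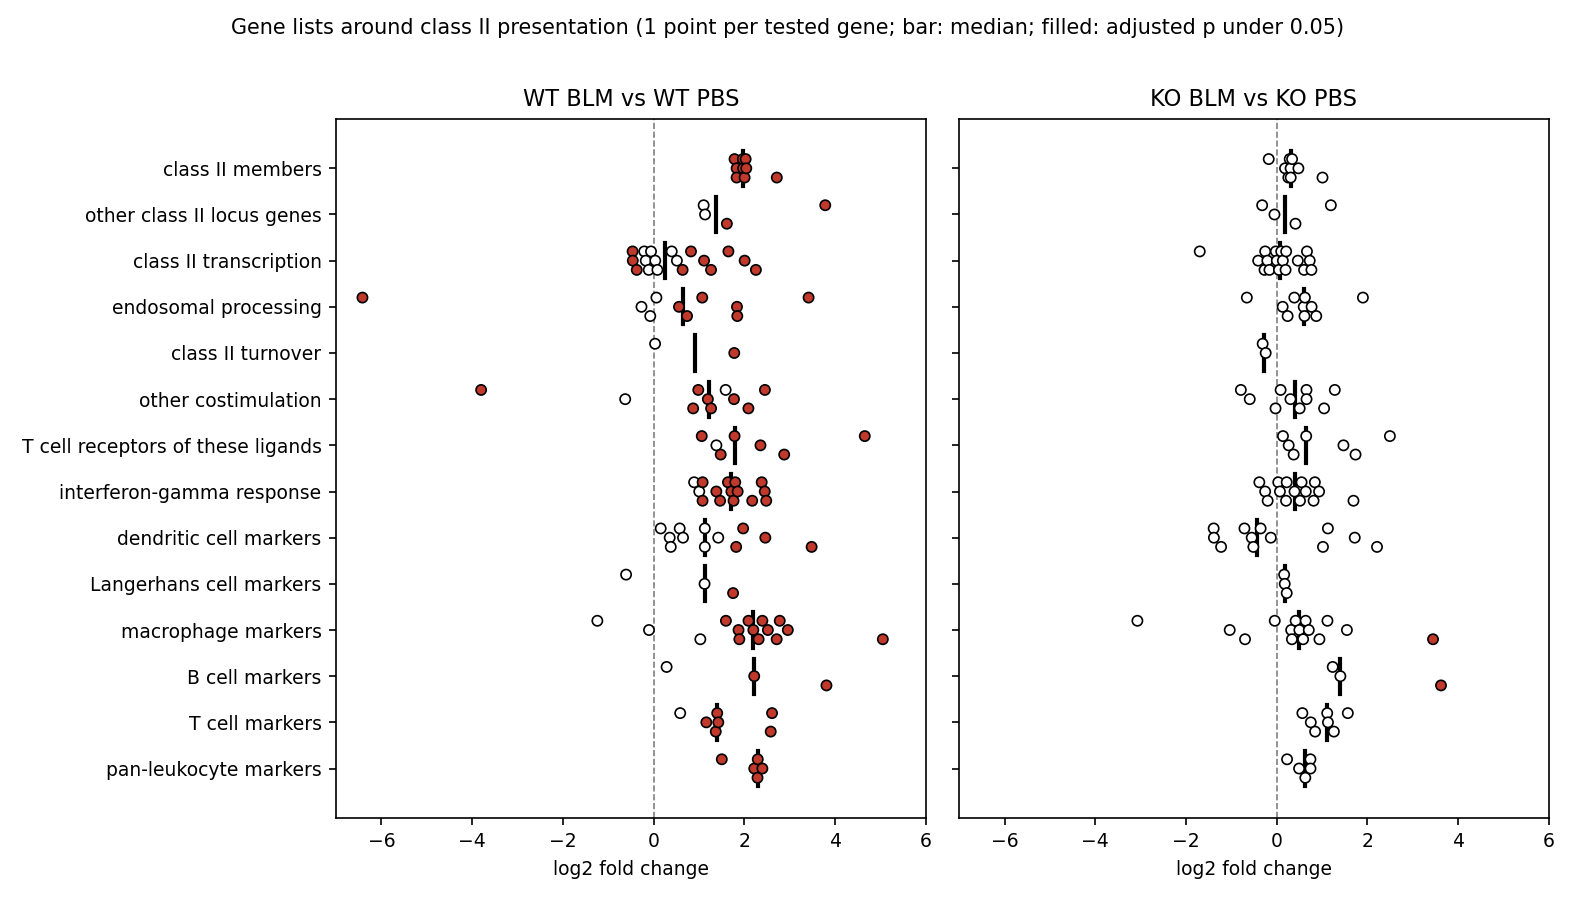
The log2 fold change (x axis) of every tested gene in the class II set, in 7 related lists and in 6 lists of cell markers (y axis), for bleomycin against PBS in WT and in KO mice. Bars are medians and filled points pass an adjusted p of 0.05. The macrophage median was 2.20 in WT and 0.50 in KO mice, and the class II medians were 1.97 and 0.31.

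Some markers of the cells that carry class II were higher where the 9 genes were, and others were not, and their part in the result was not tested. All 5 pan-leukocyte markers were called higher in WT BLM, among them Ptprc, which encodes CD45 (log2 fold change 2.40), and their summed level was 138 to 218 CPM in WT PBS, 571 to 892 in WT BLM, 121 to 515 in the KO mice given PBS and 422 to 631 in those given bleomycin. KO PBS replicate 136 had the lowest mean of these markers of all 12 mice (4.34 log2 CPM). In WT BLM 19.8% of all genes tested were called higher. Macrophage markers were called higher in 12 of 15 genes, led by Ly6c2 (5.06), Fcgr1 (2.96), Ccr2 (2.78) and Aif1 (2.71). Ly6c2 had the lowest mean of the 15 over all mice (1.03 log2 CPM). Cd163 (-1.24, adjusted p = 0.117) and Mertk (-0.10, adjusted p = 0.755) were below 0 and not called. The list summed to 500.4 to 1126 CPM for WT PBS, 2576 to 3779 for WT BLM, 526 to 2472 for KO PBS, and 1787 to 2460 for KO BLM mice. For each Ptprc count there were 11.5 ± 2.97 (SD, n = 3) H2-Aa counts in WT PBS and 8.25 ± 0.753 in WT BLM mice, 11.3 ± 2.30 after PBS and 10.8 ± 2.26 after bleomycin in KO mice, and for each count of Csf1r, a macrophage marker, there were 2.59 ± 0.844, 3.19 ± 0.357, 2.96 ± 0.197 and 3.63 ± 0.942 in the same order. Between WT PBS and WT BLM the ratio to Ptprc was lower and that to Csf1r higher on average, with overlapping ranges for Csf1r, and neither was tested.

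Dendritic cell markers were called higher in 4 of 12: Itgax (log2 fold change 3.48), Ccr7 (2.46), Ccl22 (1.98) and Clec9a (1.82). Ccr7 and Clec9a were low, with means under 1 log2 CPM. Of all genes tested, 19.8% were called higher in WT BLM. Flt3 and Zbtb46, which define conventional dendritic cells, gave 1.13 (adjusted p = 0.122) and 0.38 (adjusted p = 0.250). The list summed to 157 to 216 CPM for WT PBS, 227 to 441 for WT BLM, 194 to 359 for KO PBS, and 209 to 327 for KO BLM mice. Of 3 Langerhans cell markers, Ltc4s was called (1.75) and Cd207 was not (1.12, adjusted p = 0.0717), and the list summed to 202 to 227, 110 to 203, 163 to 266 and 217 to 263 CPM in the same order. B cell markers were low: Cd79a, Ms4a1 and Pax5 had too few counts to be tested, and the list summed to at most 14.2 CPM in any mouse. Cd22 and Cd79b were called higher. Of 7 T cell markers 6 were called, with Cd2 the highest (2.61).

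In the KO mice, Ly6c2 (3.45) and Cd22 (3.62) were the only markers of these 6 lists called higher with bleomycin. Both were low, with means of 1.03 and 0.873 log2 CPM over all 12 mice. Of all genes tested, 0.306% were called in either direction. There the median log2 fold change was 0.50 for macrophage, 0.63 for pan-leukocyte, 1.12 for T cell, 0.18 for Langerhans cell and 1.40 for B cell markers. It was -0.43 for dendritic cell markers, of which 4 of 12 were above 0 and 6 had an unadjusted p under 0.05. Such a p was found for 3665 of all 18311 genes tested. Cd163, a scavenger receptor of resident macrophages, averaged 95.5 ± 60.8 CPM (SD, n = 3) after PBS and 11.4 ± 2.10 CPM after bleomycin (log2 fold change -3.07, adjusted p = 0.0681), and Mertk gave -0.70 (adjusted p = 0.165).

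**Figure D5:**
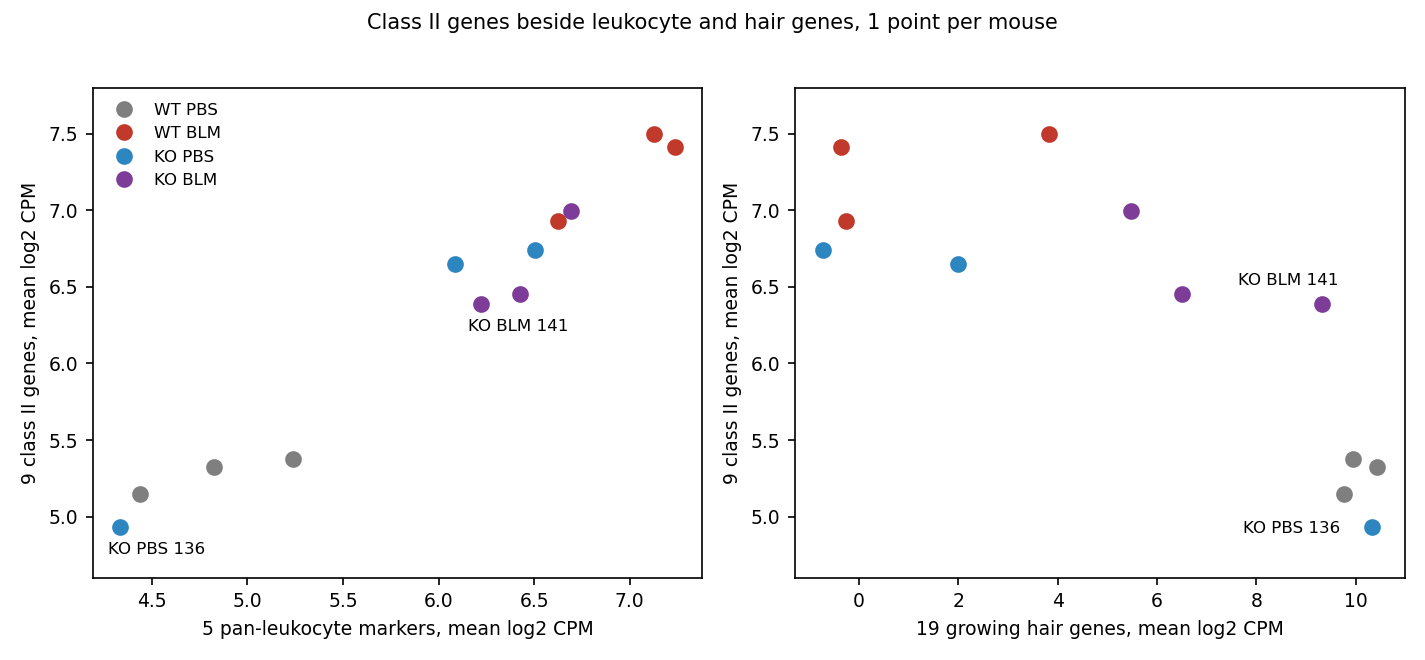
The mean log2 CPM of the 9 class II genes (y axis) beside that of 5 pan-leukocyte markers (left x axis) and of 19 growing hair genes (right x axis), with 1 point per mouse. The 3 WT PBS mice and KO PBS replicate 136 lie at 4.93 to 5.38 on the y axis and the other 8 mice at 6.39 to 7.5. KO BLM replicate 141 has 9.32 on the hair axis and 6.39 on the class II axis.

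The 4 mice with the highest growing hair means were the 4 with the lowest class II means. Their hair means were 9.77 to 10.43 and their class II means 4.93 to 5.38 log2 CPM. KO BLM replicate 141, with a hair mean of 9.32, had a class II mean of 6.39. KO BLM replicates 143 and 144 had intermediate hair means of 5.48 and 6.51. WT BLM mice and KO PBS replicates 137 and 139 had hair means of -0.72 to 3.82. Skeletal muscle genes mark tissue under the skin. In WT BLM 11 of 12 were also called higher (median 2.39), where 19.8% of all genes were. Adipocyte genes were not (0 of 8 by edgeR, 0 at an unadjusted p under 0.05). The part of the muscle share in the class II values was not tested.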

How the data were processed

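Skin RNA of 12 mice was sequenced by the authors as read pairs from stranded mRNA libraries. The deposited values are whole-number counts per gene without normalization, which the authors tested with DESeq2. Aligner, counting tool and use of strand are not given in the sources used here, and the submitters' processing notes name GRCm38.p6 and MultiQC 1.7. Counts were filtered with filterByExpr (10 counts scaled, 15 in total), scaled by TMM, and modelled as 4 group means with edgeR 4.0.16 under R 4.3.3. The comparisons were contrasts of edgeR's quasi-likelihood test, adjusted by Benjamini-Hochberg over 18311 genes, with a threshold of 0.05. An SE is the log2 fold change over the root of F, and intervals use 8 residual degrees of freedom. CPM uses TMM-scaled totals, and log2 CPM a prior count of 2. The biological coefficient of variation was 34.9%. A p-value rests on the spread between mice within groups, pooled over the 4 groups of 3 and moderated across genes. An exact permutation test of 3 against 3 cannot fall under 0.1 and was not used. Positions and exon lengths are from GENCODE M21 (GRCm38), where 98.1% of symbols matched 1 gene, and promoters from RefSeq. The fit was tested on simulated data. Each mouse has its own number, and no batch, litter or pair is named.

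Alternatives were DESeq2 1.42.0, RLE and upper-quartile normalization, no filter, a mean of at least 1 CPM, only the groups compared, each mouse left out, KO PBS replicate 136 and KO BLM replicate 141 left out together, and the mean log2 CPM of 19 growing hair genes as a covariate. The 9 genes, the lists and the alternatives were chosen with earlier results of these data known. Named besides the 9 were, per list, up to 4 called genes with the largest change and a mean of at least 1 log2 CPM, otherwise the 2 with the highest mean, and the 8 genes most like the chains. Genes named outside this rule (H2-Eb2, H2-Oa, H2-Ob, H2-Ea-ps, Rfx5, Rfxank, Nfya, Creb1, Ifng, March8, Cd28, Flt3, Zbtb46, Ccr7, Clec9a, Cd207, Epcam, Csf1r, Cd163, Mertk) were chosen after their values were seen. Plots used matplotlib 3.10.9. Some listed genes are not reported here by name.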

Additional observations from a re-analysis of the deposited data

How the results depend on the processing

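Of the alternative values for the 9 genes in the 5 comparisons, 802 kept their direction and their side of the threshold, 47 passed it newly, 14 no longer passed it and 28 changed sign. RLE and upper-quartile normalization, the 2 other filters and fits of only the groups compared changed no count of calls. DESeq2 changed only the difference of responses, to 8 calls. Leaving out KO PBS replicate 136 and KO BLM replicate 141 together gave 9 calls for KO PBS against WT PBS and 9 for the difference of responses, and KO responses of -0.0033 for H2-Aa and -0.18 for Cd86. Leaving out 1 mouse gave 7 to 9 calls for WT BLM against WT PBS, 0 to 9 for KO PBS against WT PBS, 0 to 1 for KO BLM against WT BLM and 0 to 9 for the difference. The KO response then ranged from -0.13 to 0.57 for H2-Aa, -0.079 to 0.55 for H2-Ab1, -0.055 to 0.60 for H2-Eb1, -0.10 to 0.57 for Cd74, -0.085 to 0.60 for H2-DMa, -0.24 to 0.60 for Cd86 and -0.58 to 0.16 for Ciita. With hair growth as a covariate the calls were 0 for WT BLM against WT PBS and 2 for KO BLM against KO PBS, where Ciita became 0.33. KO PBS against WT PBS became -0.11 for H2-DMa and -0.12 for Cd86. KO BLM against WT BLM became 0.11 for H2-Aa, 0.24 for H2-Ab1, 0.16 for H2-Eb1, 0.21 for Cd74, 0.28 for H2-DMa, 0.096 for H2-DMb1 and 0.23 for Cd86. The difference of responses became 0.18 for H2-Ab1, 0.11 for H2-Eb1, 0.17 for Cd74, 0.39 for H2-DMa, 0.080 for H2-DMb1 and 0.35 for Cd86. The cause was not tested. The numbers of genes called in all were 6222 for WT BLM against WT PBS (13 to 9159 over the alternatives), 56 for KO BLM against KO PBS (0 to 4164), 12 for KO PBS against WT PBS (2 to 7648), 17 for KO BLM against WT BLM (5 to 1292) and 0 for the difference (0 to 7470). No paired analysis was possible because each mouse has a number of its own. Depth was lowest for Cd80, with 31 to 275 counts per mouse.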
